A study of Gallus gallus with 12 samples.

Results

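Noggin, an extracellular antagonist that captures BMP ligands before they reach their receptors, was tested on its own in the maxillary prominence. This bud on the side of the face contributes to the upper beak. The comparison used 6 of the 12 arrays of a bead implant study in the chicken embryo, the 3 titled for Noggin with DMSO and the 3 titled for Tris with DMSO. The other 6 arrays, with all-trans-retinoic acid (RA), were used here as a second set of pools with and without Noggin. They also entered the filter on low signal and the estimate of spread for the main comparison. Every embryo, controls included, had 2 beads placed in the side of the head at Hamburger-Hamilton stage 15 (25 somites), in the tissue between the eye and the mandibular arch. In Noggin+DMSO the 200 µm bead had been soaked in 1 mg/ml Noggin and the 100 µm bead in DMSO, the solvent of RA. In Tris+DMSO, the control, the large bead carried Tris, the buffer of Noggin, and the small bead again DMSO, so that both groups shared the operation, the bead pair and the solvent. The groups Tris+RA and Noggin+RA had the same large beads, and the small bead had been soaked in RA at 1 mg/ml. After 16 h at 38 °C the embryos were at stage 18. The maxillary tissue of 12 to 15 embryos made 1 pool, and each group had 3 pools with 1 array each, so the spread between arrays is that between pools and not between embryos.

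BMPs are secreted ligands that bind paired type I and type II serine kinase receptors on the cell surface, and the activated receptors phosphorylate SMAD1, SMAD5 and SMAD9, which enter the nucleus with SMAD4. Their direct targets include the ID genes, which encode inhibitors of basic helix-loop-helix factors, the MSX homeobox genes, and the feedback inhibitors SMAD6, SMAD7 and BAMBI. In the facial prominences, BMPs are known to act on outgrowth, on skeletal differentiation and on the choice between regional identities, and maxillary tissue that receives both Noggin and RA is known to take on frontonasal character.

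Each array gave intensities for 38535 probe sets, scaled to the same trimmed mean, and 21354 chicken probe sets passed a filter on low signal. They stood for 10158 genes with a symbol, each followed by its brightest probe set. The defining maxillary genes PRRX1, TWIST1, LHX8, BARX1, DLX1, PITX1 and TFAP2B lay between the 76.1 and the 96.5 percentile of all tested probe sets in the control, and each was above background on all 6 arrays. Group values are deposited intensities, as mean ± SD of 3 pools. Fold changes are ratios of value + 16, SE is the standard error of the log2 difference, and "at least" marks a lower limit where the lower group was near background. A probe set counted as changed when limma gave it an adjusted p (Benjamini-Hochberg) below 0.05.

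Noggin alone changed 1058 of the 21354 probe sets, 4.95% of those tested, with 634 higher (2.97%) and 424 lower (1.99%). Most changes were moderate. The median change was 1.71-fold among the rises and 1.57-fold among the falls, 244 probe sets changed at least 2-fold (178 higher, 66 lower) and 22 at least 4-fold. The intensities of the 3 Noggin pools and the 3 control pools did not overlap for 1057 of the 1058, against 29.8% of all tested probe sets. The call and the lack of overlap rest on the same values, so the latter is no separate support. Freedom from overlap was also a condition for the largest rises and falls named below. By the brightest probe set, 346 genes rose (3.41%) and 230 fell (2.26%), together 5.67% of the 10158 genes. For 232 of the changed genes other probe sets had been tested too, and 260 of these 334 (77.8%) had the same sign. All 57 of them that passed the test themselves went the same way.

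The balance of rises and falls depended on the scaling. Rises made up 59.9% of the calls as deposited, 44.4% after quantile normalization and 18.7% (343 of 1839) after centring each array on its median, which moved the median log2 change of all tested probe sets from 0.06 to -0.11. None of the 86 genes named below as changed turned its direction under either scaling. The median array intensity itself was 44.2 ± 2.99 with Noggin and 37.5 ± 3.19 in the control, and the 5′ over 3′ signal ratio of the GAPDH control probe sets, a measure of how complete the labelled RNA was, was 0.669 ± 0.0440 against 0.824 ± 0.0139. Neither measure overlapped between the groups (exact permutation test, two-sided p = 0.1, the smallest that 3 against 3 allows). With the GAPDH ratio as a covariate, limma called 0 probe sets at the adjusted threshold and 1517 had an unadjusted p below 0.05. The changes of the 40 genes with the largest rises and falls, 20 each way, had a median size of 1.66 on the log2 scale with this covariate and 1.67 without it, all 40 kept their sign, and the median SE went from 0.258 to 0.639. Single genes moved more than the median. The change was at least as large with the covariate for 24 of the 40 and under 0.5 times its size for 5. The log2 change of ID1 was -1.8 (SE 0.385) and that of ALDH1A3 3.72 (SE 1.0), whereas that of ITGA4 went from -1.75 to -0.319 (SE 0.641). The same ratio was lower on average with Noggin for actin (0.479 ± 0.0640 against 0.539 ± 0.0176) and EF1A (0.585 ± 0.0565 against 0.640 ± 0.0254). Those 2 ratios overlapped between the groups (p = 0.2 each in the same permutation test). As the GAPDH ratio separated the 2 groups, RNA completeness by this measure and Noggin cannot be told apart on these 6 arrays. The same holds for the arrays with RA, where the GAPDH ratio was again lower in every Noggin pool. The actin and EF1A ratios overlapped there too. The number of changed probe sets fell to 259 when Noggin+DMSO replicate 3 was left out, to 489 when it was replicate 2 of that group and to 534 when it was replicate 1. Leaving out a control pool gave 460 for Tris+DMSO replicate 1, 536 for replicate 2 and 802 for replicate 3, and 531 were called when only the 6 arrays were fitted.

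**Figure D1:**
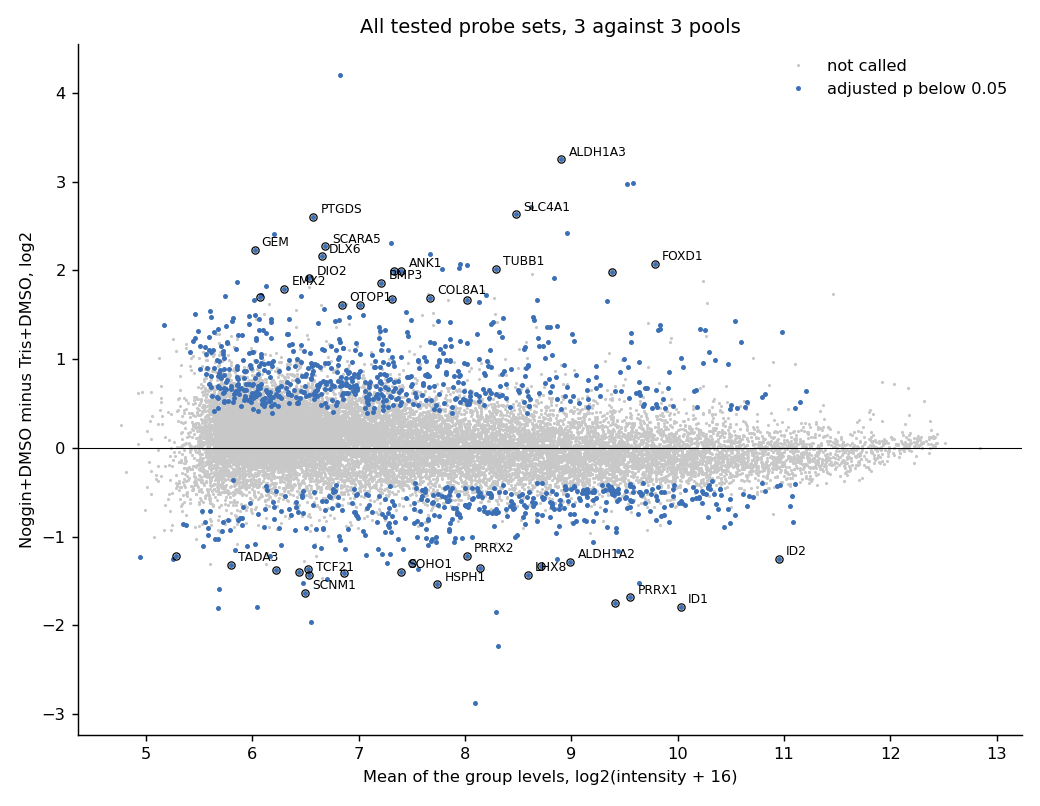
Mean level of each tested probe set over both groups, as log2 of the intensity plus 16 (horizontal axis), against the log2 difference between Noggin+DMSO and Tris+DMSO (vertical axis), 3 pools per group. Blue points are the 1058 changed probe sets, circles the 40 genes with the largest rises and falls, of which some carry their symbol; ALDH1A3 stands highest among these and ID1 lowest.

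Of 14 tested genes on a list of known BMP targets, 7 (50%, against 5.67% of all genes changed) fell and 0 rose. The median log2 change over the 14 was -0.93 against 0.04 over all 10158 genes. ID1 had intensities of 2139, 1735 and 1925 in the control pools and of 578, 513 and 545 in the Noggin pools. All Noggin pools lay far below all control pools, a fall of 3.46-fold (log2 -1.79, SE 0.15, adjusted p = 0.000592) that was the lowest adjusted p on the list. ID2, the brightest of the list, was 3252, 3049 and 2796 in the control and 1369, 1263 and 1169.6 with Noggin, again without overlap, and fell 2.38-fold (log2 -1.25, SE 0.20, adjusted p = 0.00775). Of the other 3 tested ID2 probe sets 1 fell as well and 1 had the opposite sign without passing the test. ID3 stood at 203 ± 27.2 in the control and 98.3 ± 20.8 with Noggin, a fall of 1.93-fold (log2 -0.95, SE 0.22, adjusted p = 0.0323). This call was lost in 5 of 6 fits that each left out 1 pool (adjusted p up to 0.12, without Noggin+DMSO replicate 3) and held without Noggin+DMSO replicate 1. ID4 did not pass the test, with 324 ± 51.2 against 285 ± 23.6.

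MSX1, a homeobox gene of facial mesenchyme, was 299.8, 367 and 302 in the control pools and 155, 126 and 177 in the Noggin pools. The groups did not overlap, and the fall was 2.02-fold (log2 -1.01, SE 0.15, adjusted p = 0.00485). Its relative MSX2 was lower in every Noggin pool (137, 92.2 and 145 against 51.3, 40.5 and 57.8) but did not pass the test (adjusted p = 0.0742). Among the feedback inhibitors, SMAD6 fell 1.78-fold (log2 -0.83, SE 0.13, adjusted p = 0.00774), from 735 ± 73.7 to 408 ± 67.0. BAMBI, a decoy receptor, had 3 Noggin values between 442 and 464 and 3 control values between 771 and 848 but did not pass the test (adjusted p = 0.0637). SMAD7 was 126 ± 45.7 against 49.9 ± 33.2, with adjusted p = 0.0952. GATA3, a zinc finger factor, was 95.4, 119 and 186 in the control and 39.3, 33.4 and 49.8 with Noggin, where 1 of 3 arrays was above background, and fell at least 2.41-fold (log2 -1.36, SE 0.24, adjusted p = 0.0115). ATOH8, a basic helix-loop-helix factor, fell 1.88-fold (log2 -0.91, SE 0.12, adjusted p = 0.00326). The intensities of HEY1, SNAI2 and GATA2 overlapped between the groups. HAND1, HAND2, TBX2 and TBX3 were below background on all 6 arrays and were not tested, and the remaining gene of the list of 19, JUNB, was not analysed here. Whichever pool was left out, 6 or 7 of the 14 genes fell, with ID1, ID2, SMAD6, MSX1, GATA3 and ATOH8 in every fit.

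**Figure D2:**
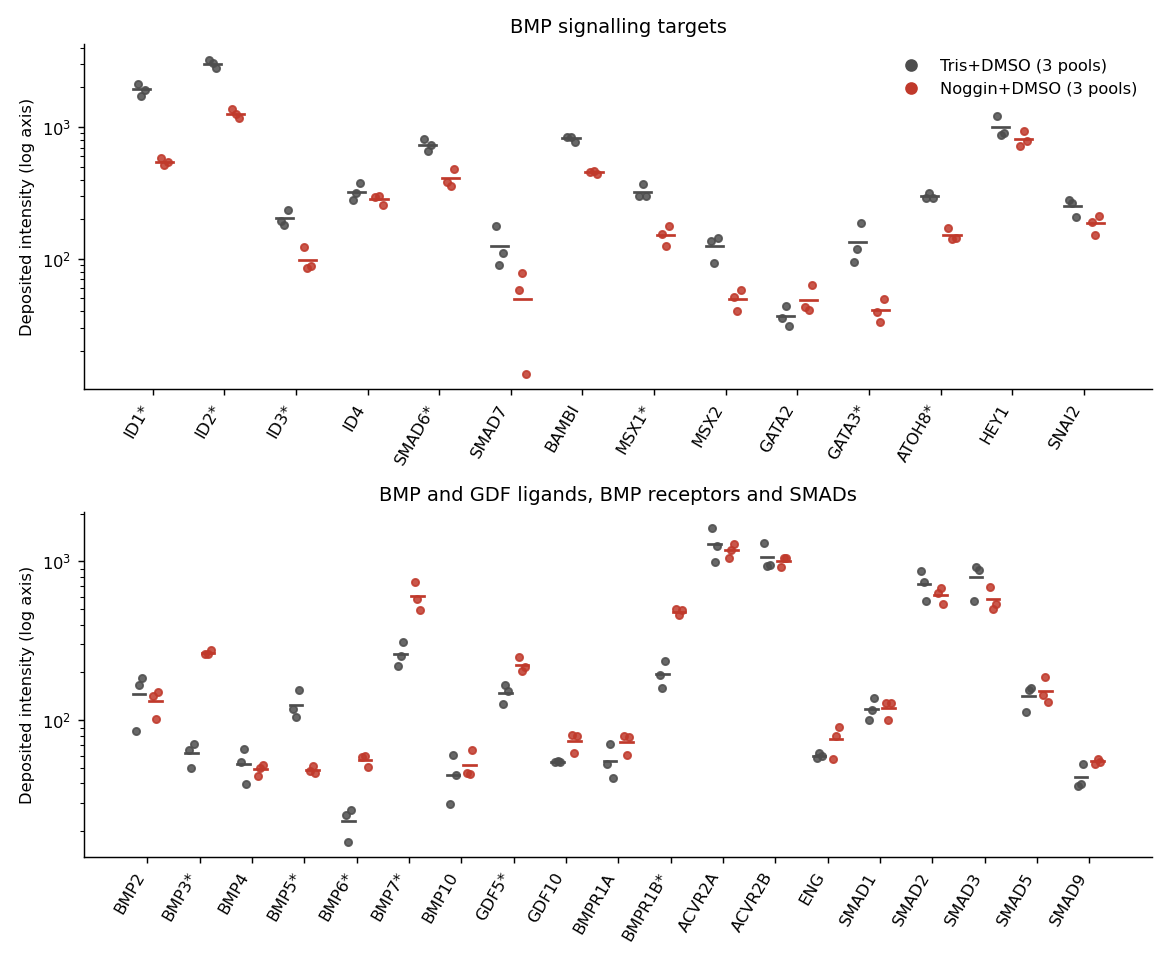
Deposited intensity (vertical axis, log scale) of each pool for 14 BMP targets (upper panel) and for the tested BMP and GDF ligands, BMP receptors and SMADs (lower panel), Tris+DMSO in grey and Noggin+DMSO in red. Points are single pools, lines their means, and an asterisk marks an adjusted p below 0.05; ID1, ID2 and BAMBI are lower and BMP3, BMP7 and BMPR1B higher in every Noggin pool.

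Of 9 tested BMP and GDF ligand genes, 4 rose and 1 fell (55.6%, against 5.67% of all genes). BMP3, which in other vertebrates opposes the osteogenic BMPs, was 64.8, 50.4 and 71.2 in the control pools and 262, 262 and 275 in the Noggin pools. The Noggin values lay within a narrow range and well above the control, a rise of 3.64-fold (log2 1.86, SE 0.38, adjusted p = 0.0219). BMP7, a strong activator of SMAD1 and SMAD5, was 221, 252 and 309 against 739, 576 and 491, also without overlap, and rose 2.22-fold (log2 1.15, SE 0.20, adjusted p = 0.0108). GDF5, a joint-forming ligand, rose 1.46-fold (log2 0.55, SE 0.13, adjusted p = 0.0336) and BMP6 at least 1.41-fold (log2 0.89, SE 0.21, adjusted p = 0.0324), with BMP6 below background in all 3 control pools. BMP5 went down, from 117, 104 and 154 to 48.0, 51.6 and 46.5, a fall of 2.16-fold (log2 -1.11, SE 0.17, adjusted p = 0.00693). BMP4 (53.4 ± 12.9 against 49.1 ± 4.10) and BMP2 (145 ± 53.2 against 132 ± 26.3), the ligands best known in the face, overlapped between the groups. The BMP4 means were not far above the mean background level (35.6 in the control and 44.1 with Noggin).

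The rise of BMP7 and the fall of BMP5 passed the test whichever pool was left out. BMP3 passed only without Tris+DMSO replicate 3 (adjusted p up to 0.0814 in the other 5 fits), GDF5 only without Tris+DMSO replicate 2 (up to 0.1) and BMP6 in none (up to 0.0893). BMP6 and GDF5 kept their direction but not their call after median centring. Among 10 receptors and SMADs 1 changed (10%, against 5.67% of all genes). BMPR1B, the type I receptor of chondrogenic mesenchyme, was 193, 159 and 235 in the control and 498, 459 and 494 with Noggin, with no overlap, and rose 2.39-fold (log2 1.25, SE 0.19, adjusted p = 0.00606). BMPR1A was 55.8 ± 13.8 against 72.9 ± 10.6 and did not pass the test. The transducers SMAD1 (118 ± 19.5 against 119 ± 15.9) and SMAD5 (142 ± 25.6 against 153 ± 29.2) overlapped between the groups. Of 11 secreted antagonists and modulators only FSTL1, follistatin-like 1, passed the test, with a rise of 1.49-fold (log2 0.57, SE 0.13, adjusted p = 0.0318), by 1 of its 3 tested probe sets while another had the opposite sign. That call was 9.09% of the list, not far above the 5.67% of all genes. The antagonists CHRD (108 ± 32.1 against 162 ± 88.8) and FST (84.6 ± 30.3 against 63.9 ± 8.52) did not pass it.

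Of 25 tested transcription factors that pattern the first arch, 6 fell and 6 rose, so 12 (48%) changed where 5.67% of all genes did. The paired-related homeobox gene PRRX1, a marker and regulator of craniofacial mesenchyme, was 1092, 1721 and 1213 in the control pools and 434, 342 and 425 in the Noggin pools. Every Noggin pool was below every control pool, a fall of 3.22-fold (log2 -1.69, SE 0.19, adjusted p = 0.00218). The other 2 PRRX1 probe sets were dimmer and fell further, with log2 changes of -2.88 (SE 0.26) and -1.85 (SE 0.24). Its paralog PRRX2 fell 2.32-fold (log2 -1.22, SE 0.17, adjusted p = 0.00443) and was lower by both of its probe sets. LHX8, a LIM homeobox gene of maxillary mesenchyme, was 383, 895 and 615 against 257, 169 and 214. The groups did not overlap but the control pools differed widely among themselves, and the fall of 2.70-fold (log2 -1.43, SE 0.36, adjusted p = 0.0434) held only without Tris+DMSO replicate 1 (adjusted p up to 0.126 without another pool). TCF21, a mesodermal helix-loop-helix factor, fell at least 2.47-fold (log2 -1.43, SE 0.20, adjusted p = 0.00343). MECOM, a zinc finger gene needed for facial development in the mouse, fell 2.66-fold (log2 -1.41, SE 0.19, adjusted p = 0.00341). DLX1, which marks proximal arch mesenchyme, fell 2.05-fold (log2 -1.04, SE 0.20, adjusted p = 0.017), a call lost without Noggin+DMSO replicate 2, Noggin+DMSO replicate 3 or Tris+DMSO replicate 2 (adjusted p up to 0.0573).

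The factors that rose included those known from the lower jaw or the palate. DLX5, which with DLX6 gives the mandibular arch its identity in the mouse, was 635, 755 and 882 in the control pools and 1867, 1823 and 2072 in the Noggin pools, without overlap, and rose 2.52-fold (log2 1.33, SE 0.21, adjusted p = 0.00724). DLX6 was 18.5, 16.9 and 65.8 against 162, 186 and 215. At most 1 control pool was above background, so the rise was at least 3.43-fold (log2 2.16, SE 0.40, adjusted p = 0.0152), and it was lost without Noggin+DMSO replicate 3, Tris+DMSO replicate 1 or Tris+DMSO replicate 2 (adjusted p up to 0.0638). NKX3-2, the jaw joint homeobox gene, rose 3.20-fold (log2 1.68, SE 0.31, adjusted p = 0.015), a call lost without Tris+DMSO replicate 1 (adjusted p = 0.0535). TBX22, a T-box gene mutated in human cleft palate, was 35.6, 69.1 and 72.5 against 215, 221 and 186 and rose 3.05-fold (log2 1.61, SE 0.19, adjusted p = 0.00218). EMX2, a homeobox gene of forebrain and urogenital tissue, rose at least 2.74-fold (log2 1.79, SE 0.26, adjusted p = 0.00444), and both EMX2 and TBX22 kept the call whichever pool was left out. LHX9 rose at least 1.78-fold (log2 1.08, SE 0.27, adjusted p = 0.0438), with 0 of 3 control pools above background. It kept the call only without Noggin+DMSO replicate 2 (adjusted p up to 0.161 without another pool) and was the one factor here that lost its call after quantile normalization. The maxillary factors BARX1 (442 ± 226 against 342 ± 48.6), PITX1 (210.1 ± 8.57 against 149.8 ± 37.0) and TFAP2B (568 ± 61.6 against 494 ± 87.6) did not pass the test.

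Of 11 tested factors of the frontonasal, eye and forebrain fields, 1 rose and 2 fell (27.3%, against 5.67% of all genes). After median centring 0 rose and 3 fell, and without the filter on low values 3 rose and 2 fell. The additional rises there were of SIX6 (9.11, 2.36 and 27.3 against 71.2, 39.4 and 52.4, adjusted p = 0.047 without the filter) and LHX2 (7.09, 7.08 and 18.8 against 43.2, 27.2 and 31.8, adjusted p = 0.0284), homeobox genes of the eye field that were above background on 2 and 1 of the 6 arrays. OTX2, a head homeobox gene, rose 1.71-fold (log2 0.77, SE 0.16, adjusted p = 0.0212). SOHO1, a homeobox gene named for chick sensory organs, was 184, 356 and 245 in the control and 80.3, 92.8 and 86.0 with Noggin, without overlap, and fell 2.63-fold (log2 -1.39, SE 0.20, adjusted p = 0.00383). MAB21L2, which acts in eye and face mesenchyme, fell 2.20-fold (log2 -1.14, SE 0.22, adjusted p = 0.018). ALX1 (348 ± 71.4 against 258 ± 65.6) and PAX6 (132 ± 21.5 against 123 ± 22.8), both known from the frontonasal region, did not pass the test. The calls of OTX2 (adjusted p up to 0.0711) and MAB21L2 (up to 0.0709) were lost without Noggin+DMSO replicate 2, Noggin+DMSO replicate 3 or Tris+DMSO replicate 2, and that of MAB21L2 also without Tris+DMSO replicate 3.

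**Figure D3:**
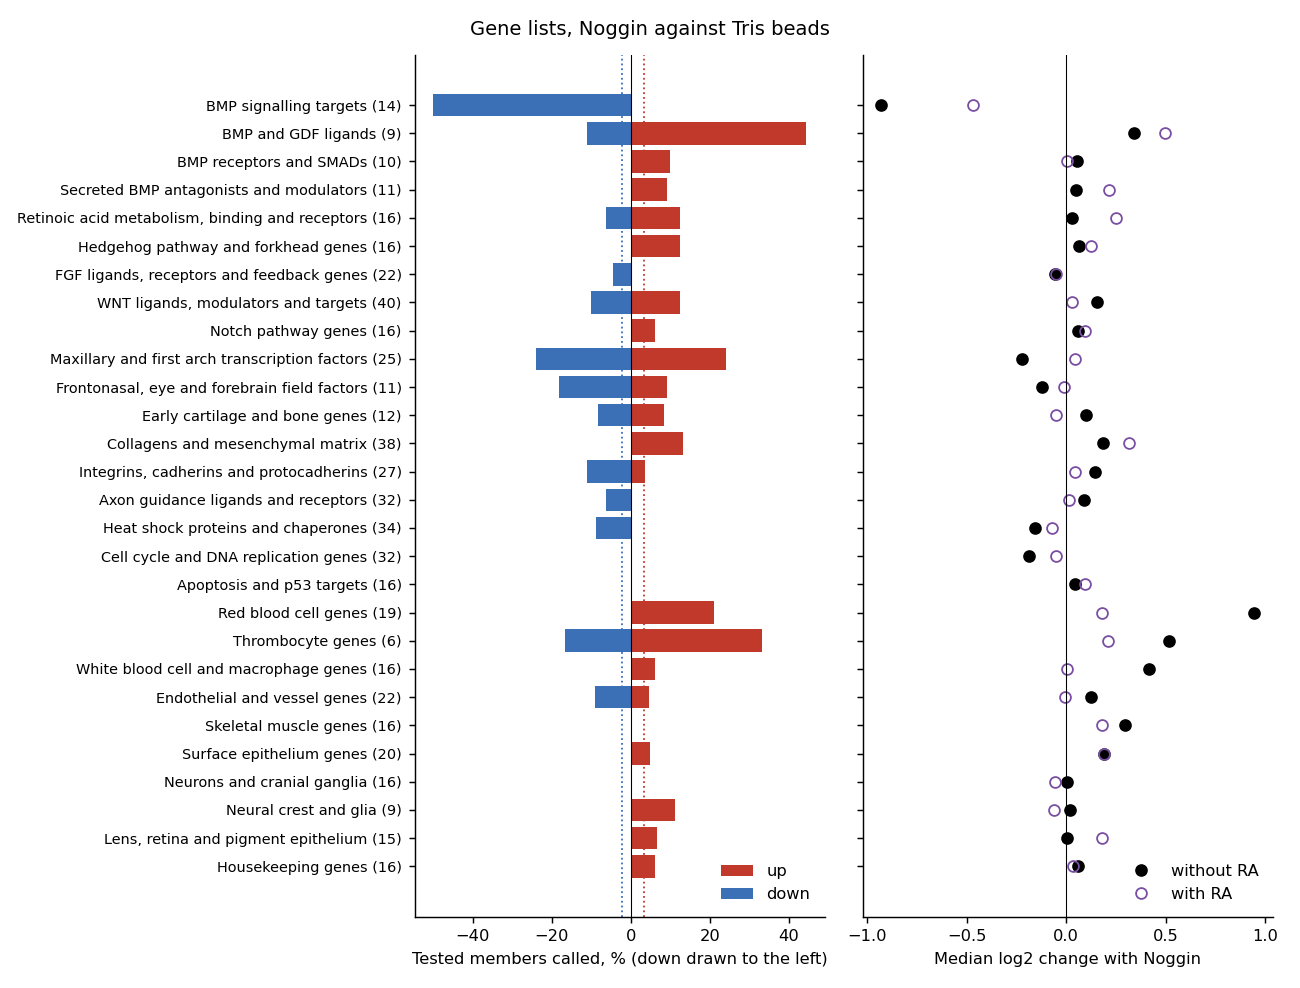
Share of the tested members of each gene list that rose (red, to the right) or fell (blue, to the left) with Noggin alone, with the shares over all 10158 genes as dotted lines (left panel), and median log2 change of each list on the arrays without RA (filled) and with RA (open, right panel). The number of tested genes stands beside each list; BMP targets have the lowest median without RA, -0.93, and red blood cell genes the highest, 0.95.

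Of the enzymes that make RA, ALDH1A3 rose and ALDH1A2 fell although neither group received RA. ALDH1A1, of the same family, was below background on all 6 arrays and was not tested. Without the filter on low values limma gave it a log2 change of 0.79 (adjusted p = 0.0603). ALDH1A3, a retinaldehyde dehydrogenase of the nasal and eye region, had the largest rise of any named gene. It was 68.0, 89.0 and 299 in the control pools and 1708, 1025 and 1328 in the Noggin pools, and Tris+DMSO replicate 3 stood above the other controls but far below every Noggin pool. The rise was 9.54-fold (log2 3.25, SE 0.40, adjusted p = 0.00249). ALDH1A2, the main RA-producing enzyme of early mesenchyme, was 758, 805 and 753 against 339.7, 232 and 365, again without overlap, and fell 2.44-fold (log2 -1.29, SE 0.18, adjusted p = 0.00341). Both of its probe sets fell, and both genes kept their call whichever pool was left out. TGM2, a transglutaminase that RA induces in many cells, rose 2.57-fold (log2 1.36, SE 0.18, adjusted p = 0.00277). These 3 calls were 18.8% of the list of RA genes, against 5.67% of all genes. The other 13 of 16 tested genes of RA metabolism, binding and response did not pass the test, among them the RA-inducible receptor RARB (712 ± 88.3 against 777 ± 50.9) and the degrading enzymes CYP26A1 (146 ± 51.1 against 69.1 ± 10.9) and CYP26C1 (177 ± 23.5 against 93.0 ± 22.4).

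Of the WNT, hedgehog, FGF and Notch lists, between 4.55% (FGF) and 22.5% (WNT) of the genes changed, against 5.67% of all genes. Of 40 tested WNT genes 5 rose and 4 fell. RSPO3, an R-spondin that strengthens WNT signalling at the receptor, was 284, 266 and 417 in the control pools and 1314, 1319 and 1257 in the Noggin pools. The groups were far apart, and the rise was 3.95-fold (log2 1.98, SE 0.22, adjusted p = 0.00209) by the brighter of 2 probe sets that both rose. RSPO1 rose 1.75-fold (log2 0.81, SE 0.20, adjusted p = 0.0417), the extracellular inhibitor NOTUM 1.87-fold (log2 0.91, SE 0.21, adjusted p = 0.0336), the antagonist DKK2 1.52-fold (log2 0.61, SE 0.14, adjusted p = 0.0349) and the receptor FZD3 1.5-fold (log2 0.59, SE 0.11, adjusted p = 0.0157). WIF1, a secreted WNT inhibitor, was 89.2, 124 and 162 against 32.8, 25.5 and 54.0 and fell at least 2.24-fold (log2 -1.40, SE 0.29, adjusted p = 0.0227). WNT5A, a ligand of facial outgrowth, fell 1.5-fold (log2 -0.58, SE 0.11, adjusted p = 0.0152), its receptor ROR1 1.40-fold (log2 -0.48, SE 0.11, adjusted p = 0.0278) and the antagonist FRZB 1.45-fold (log2 -0.54, SE 0.11, adjusted p = 0.0235). Of these 9, RSPO3 alone kept its call whichever pool was left out, and the highest adjusted p of the others lay between 0.059 (WNT5A) and 0.129 (NOTUM). All 8 were lost without Noggin+DMSO replicate 2, and 6 of them (WNT5A, DKK2, FRZB, NOTUM, FZD3 and ROR1) also without Noggin+DMSO replicate 3. RSPO1, NOTUM and DKK2 lost theirs under both other scalings.

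Of 16 hedgehog and forkhead genes, 2 rose and 0 fell. FOXD1, a forkhead gene of facial mesenchyme, was 626, 285 and 360.1 in the control and 1792, 1757 and 1689 with Noggin, where the pools were closely alike, and rose 4.22-fold (log2 2.08, SE 0.25, adjusted p = 0.0024). HHIP, the hedgehog-binding feedback inhibitor, was 349.5, 284 and 346 against 857, 699.8 and 768 and rose 2.31-fold (log2 1.21, SE 0.21, adjusted p = 0.0115). The hedgehog target PTCH1 (1015 ± 351 against 1264 ± 295) and the ligand SHH (38.3 ± 12.7 against 42.6 ± 17.9) did not pass the test. The SHH means were close to the mean background level (35.6 in the control and 44.1 with Noggin). FOXD1 and HHIP kept the call whichever pool was left out. Of 22 FGF pathway genes 1 changed, the receptor antagonist IL17RD, which fell 1.60-fold (log2 -0.68, SE 0.17, adjusted p = 0.045) and kept its call only without Tris+DMSO replicate 1 (adjusted p up to 0.125 otherwise). This count depended on the setting, with 6 FGF genes falling after median centring, 3 with an intensity trend or with 64 added before log2, and 0 in the fit of the 6 arrays. FGF8 was 56.0 ± 20.6 against 21.3 ± 11.4 and did not pass the test (adjusted p = 0.0867). Of 16 Notch genes 1 (6.25%, near the 5.67% of all genes) changed, the ligand DLL4, which rose 1.58-fold (log2 0.66, SE 0.13, adjusted p = 0.0162), a call lost without Noggin+DMSO replicate 1, Noggin+DMSO replicate 3 or Tris+DMSO replicate 2 (adjusted p up to 0.0564).

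With the scaling as deposited, matrix genes rose where they changed. Of 38 tested collagens and mesenchymal matrix genes 5 rose and 0 fell (13.2%, against 5.67% of all genes), and the list median was a log2 change of 0.19. After median centring 5 rose and 1 fell, with a list median of 0.02. COL12A1, a fibril-associated collagen, was 597, 555 and 518 in the control pools and 1506, 1457 and 1348 in the Noggin pools. The groups were well separated and all 3 probe sets rose, the brightest 2.54-fold (log2 1.34, SE 0.12, adjusted p = 0.000592). COL8A1, a short-chain collagen, was 107, 83.9 and 103 against 378, 342 and 331 and rose 3.22-fold (log2 1.69, SE 0.21, adjusted p = 0.00247). Of the 3 tested COL8A1 probe sets only this 1 passed the test, and 0 had the opposite sign. POSTN, periostin, rose from 1278 ± 237 to 3145 ± 93.5, which is 2.47-fold (log2 1.30, SE 0.28, adjusted p = 0.0259). Its call held only without Tris+DMSO replicate 2 (adjusted p up to 0.0919 without another pool). The small proteoglycan OGN rose at least 1.76-fold (log2 1.07, SE 0.14, adjusted p = 0.0028) and the spondin SPON2 at least 1.36-fold (log2 1.08, SE 0.17, adjusted p = 0.00608), both from below background in all 3 control pools, and both kept the call whichever pool was left out, as did COL12A1 and COL8A1.

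Of 12 early cartilage and bone genes 1 rose and 1 fell (16.7%, against 5.67% of all genes). HAPLN1, the link protein that ties aggrecan to hyaluronan, was 452, 426 and 426 in the control pools and 179, 141 and 162 in the Noggin pools. The pools within each group were closely alike, and the fall was 2.56-fold (log2 -1.36, SE 0.12, adjusted p = 0.000592). SPARC, osteonectin, rose 1.43-fold (log2 0.51, SE 0.12, adjusted p = 0.0322) but lost its call whichever pool was left out (adjusted p up to 0.0968). SOX9 (33.8 ± 25.9 against 26.5 ± 17.5) and COL2A1 (294 ± 39.0 against 416 ± 76.5), the early markers of cartilage, did not pass the test. The SOX9 means lay below the mean background level (35.6 in the control and 44.1 with Noggin), so a change of SOX9 could not be seen here. Of 27 integrins and cadherins 1 rose and 3 fell (14.8%, against 5.67% of all genes). ITGA4, the α4 integrin subunit, was 1190.3, 814 and 1749 against 445, 358 and 252. The groups did not overlap despite a wide spread in the control, and it fell 3.37-fold (log2 -1.75, SE 0.32, adjusted p = 0.0142), a call lost without Noggin+DMSO replicate 3 (adjusted p = 0.0624). PCDH10, a protocadherin, fell at least 1.99-fold (log2 -1.38, SE 0.19, adjusted p = 0.00347) to below background in all 3 Noggin pools. ITGA1 fell 1.38-fold (log2 -0.46, SE 0.11, adjusted p = 0.0382) and ITGB3 rose 1.5-fold (log2 0.59, SE 0.15, adjusted p = 0.0463), with adjusted p up to 0.139 and 0.164 without 1 pool. ITGA1 passed only without Noggin+DMSO replicate 1, and ITGB3 in none of the 6 fits. Of 32 axon guidance genes, which also act on crest cell migration, SEMA3E fell at least 1.04-fold (log2 -0.83, SE 0.17, adjusted p = 0.0194) and UNC5C 1.60-fold (log2 -0.68, SE 0.13, adjusted p = 0.0168). These calls were 6.25% of the list, near the 5.67% of all genes. SEMA3E lost its call without Tris+DMSO replicate 2 (0.0581), and UNC5C without Noggin+DMSO replicate 1 or Noggin+DMSO replicate 3 (up to 0.068).

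Of 34 tested heat shock and chaperone genes 3 fell and 0 rose (8.82%, against 5.67% of all genes). A negative change was measured for 28 of the 34, against 44.8% of all genes, and the median log2 change was -0.16. HSPH1, the HSP110 co-chaperone, was 394, 277 and 370.3 in the control and 119.7, 125 and 83.1 with Noggin, without overlap, and fell 2.90-fold (log2 -1.54, SE 0.19, adjusted p = 0.00247). CHORDC1, an HSP90 co-chaperone, fell 2.03-fold (log2 -1.02, SE 0.20, adjusted p = 0.0196), and CCT5, a subunit of the cytosolic chaperonin, 1.57-fold (log2 -0.65, SE 0.12, adjusted p = 0.0122). CCT5 lost its call without Noggin+DMSO replicate 3 (0.0547) and CHORDC1 without any Noggin pool or Tris+DMSO replicate 1 (up to 0.0638), while HSPH1 kept its call throughout. Of 32 cell cycle and DNA replication genes limma called 0, and 13 had an unadjusted p below 0.05, of which 11 were lower and 2 higher with Noggin. Of all genes 26.4% had an unadjusted p below 0.05. The median log2 change of the cell cycle list was -0.19. After median centring 8 of these genes fell, and with an intensity trend or with 64 added before log2 3 fell and 1 rose. The replication gene MCM6 was 1369.6 ± 56.5 against 1007 ± 50.1 (adjusted p = 0.067) and the proliferation marker MKI67 1584 ± 142 against 1476 ± 121 (adjusted p = 0.6). Of 16 apoptosis and p53 target genes limma called 0, with an unadjusted p below 0.05 for 2, a smaller share than the 26.4% of all genes.

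Several blood cell genes rose with Noggin. In such bulk tissue a change in the number of cells of a type and a change in RNA per cell cannot be told apart, here as for every gene above. Of 19 tested red blood cell genes 4 rose and 0 fell (21.1%, against 5.67% of all genes). A positive change was measured for 17 of 19, against 5607 of all 10158 genes. The list median of 0.95 was the highest of the 28 lists. The summed intensity of the 19 ranged from 17070 to 29290 in the control pools and from 31800 to 40520 in the Noggin pools. SLC4A1, the anion exchanger of the red cell membrane, was 149.8, 189 and 55.2 in the control and 559, 846 and 1150.2 with Noggin, where the pools spanned a wide range above the control. It rose 6.2-fold (log2 2.63, SE 0.52, adjusted p = 0.0183). The membrane skeleton gene ANK1 rose 3.99-fold (log2 2.0, SE 0.41, adjusted p = 0.0209), by 1 of its 3 tested probe sets while another had the opposite sign, the transferrin receptor TFRC 2.68-fold (log2 1.42, SE 0.32, adjusted p = 0.029) and the erythroid factor TAL1 1.93-fold (log2 0.95, SE 0.23, adjusted p = 0.0387). The globin genes HBA1 (5011 ± 1294 against 5654 ± 496) and HBZ (4347 ± 1565 against 5971 ± 618) did not pass the test. All 4 calls were lost without Noggin+DMSO replicate 2 or Noggin+DMSO replicate 3 (adjusted p up to 0.0824 for SLC4A1, 0.0878 for ANK1, 0.119 for TFRC and 0.116 for TAL1). Those of ANK1, TFRC and TAL1 were lost also without Tris+DMSO replicate 1 or Tris+DMSO replicate 3, and that of TAL1 without Tris+DMSO replicate 2.

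Of 6 thrombocyte genes 2 rose and 1 fell (50%, against 5.67% of all genes). TUBB1, a β-tubulin gene, rose 4.05-fold (log2 2.02, SE 0.52, adjusted p = 0.0485) by 1 of its 2 tested probe sets, a call lost whichever pool was left out (adjusted p up to 0.165). With the red blood cell list mean as a covariate, the log2 change of TUBB1 was -0.305 (SE 0.266). A rise of TUBB1 apart from the red blood cell genes was therefore not shown. ITGB3, given above with the integrins, was also on the thrombocyte list. FLI1, an ETS factor of endothelium and blood, fell 1.52-fold (log2 -0.60, SE 0.14, adjusted p = 0.0321), a call kept only without Tris+DMSO replicate 3 (up to 0.126). Of 16 white blood cell genes CD74, the invariant chain, rose 1.53-fold (log2 0.61, SE 0.12, adjusted p = 0.0179), lost without Noggin+DMSO replicate 1, Noggin+DMSO replicate 3 or Tris+DMSO replicate 2 (up to 0.0794). That call was 6.25% of the white blood cell list, near the 5.67% of all genes. For this list 15 of 16 genes were higher with Noggin, against 5607 of all 10158 genes. The summed intensities were 2278 to 2961 in the control pools and 3128 to 4038 in the Noggin pools. With the mean of the red blood cell list added to the model as a covariate, 32 probe sets were called, and 1 of the 14 BMP targets, ID1, at a log2 change of -1.88 (adjusted p = 0.0371). The part of blood cell content in the other calls was not tested.

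**Figure D4:**
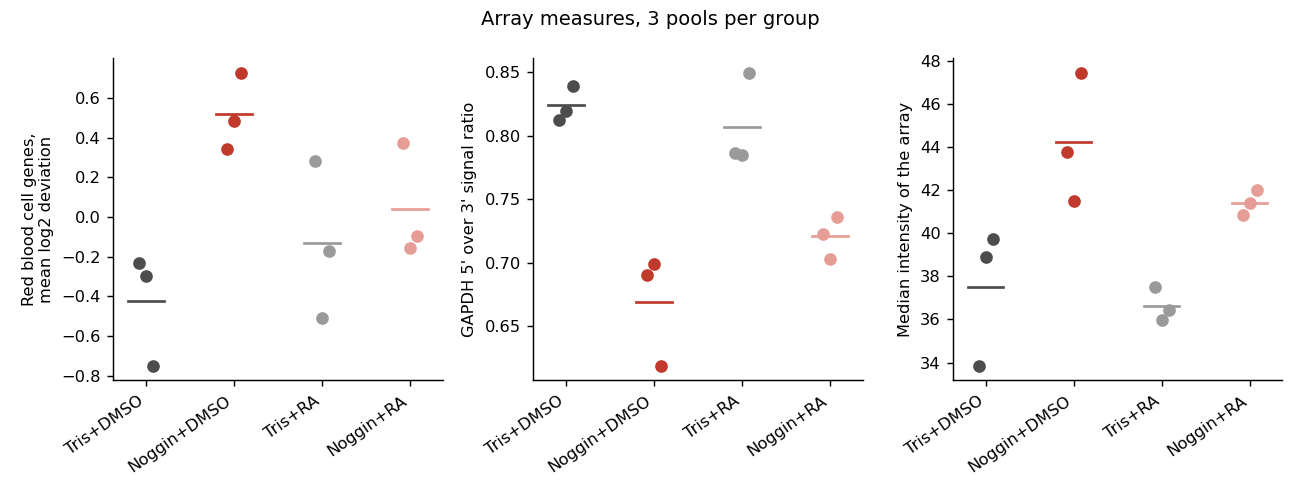
Mean log2 deviation of the red blood cell genes from their average over the 12 arrays (left), 5′ over 3′ signal ratio of GAPDH (middle) and median intensity (right) of each array, 3 pools per group with the mean as a line. The Noggin+DMSO pools lie apart from Tris+DMSO in each panel, at 0.344 to 0.726 against -0.751 to -0.231 for the red blood cell genes, whereas Noggin+RA and Tris+RA overlap in the left panel and not in the other 2.

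Markers of the remaining cell types gave few calls. The share called was 5% of the surface epithelium, 6.67% of the lens and retina and 6.25% of the housekeeping list. These shares were near the 5.67% of all genes. The share was 13.6% of the endothelial and 11.1% of the crest and glia list. The endothelial marker CDH5 was 997 ± 100.5 against 908 ± 67.9 and did not pass the test. The endothelial markers PECAM1 (46.7 ± 12.4 against 57.6 ± 19.4) and KDR (143 ± 19.4 against 160 ± 9.47) were higher on average with Noggin. Of 22 endothelial genes VWF, von Willebrand factor, rose 1.58-fold (log2 0.66, SE 0.15, adjusted p = 0.0319). The vessel ligand ANGPT1 fell at least 1.27-fold (log2 -0.82, SE 0.20, adjusted p = 0.041), and FLI1 was the other fall. VWF lost its call whichever pool was left out (adjusted p up to 0.0929) and ANGPT1 kept it only without Noggin+DMSO replicate 1 (up to 0.132). Of 20 surface epithelium genes KRT75, a keratin, rose 2.0-fold (log2 1.00, SE 0.19, adjusted p = 0.0161), lost without Noggin+DMSO replicate 3 or Tris+DMSO replicate 1 (up to 0.0733). The epithelial marker EPCAM was 2259 ± 86.1 against 2779 ± 78.7 (adjusted p = 0.112). The epithelial marker TP63 was also higher on average with Noggin (299 ± 46.5 against 364 ± 21.0), whereas CDH1 was lower (509 ± 56.8 against 458 ± 83.65). Of 9 crest and glia genes GFRA1, a GDNF receptor, rose 2.36-fold (log2 1.24, SE 0.22, adjusted p = 0.0126), while the crest factor SOX10 was 755 ± 99.9 against 770.1 ± 143. Of 16 neuronal genes limma called 0, with an unadjusted p below 0.05 for 1, and their summed intensity ranged from 2357 to 7087 in the control pools and from 3005 to 4866 in the Noggin pools. Of 16 skeletal muscle genes it called 0, with an unadjusted p below 0.05 for 4, close to the share of all genes (26.4%). Their mean log2 deviation lay between -0.122 and 0.068 in the Noggin pools and between -0.329 and -0.188 in the control pools, without overlap. The defining genes MYOD1 and MYOG were above background on 0 of 6 arrays. The defining gene MYF5 was above it on 4 of 6 and was lower on average with Noggin (65.3 ± 10.5 against 39.3 ± 11.4). Of 15 lens and retina genes OTX2, given above, was the only call. The lens crystallin CRYAA was above background on 0 of 6 arrays, and the crystallin CRYBB1 on 4 of 6 (36.5 ± 10.7 against 43.7 ± 0.104). Of 16 housekeeping genes B2M rose 1.5-fold (log2 0.59, SE 0.13, adjusted p = 0.0254), a call lost without Noggin+DMSO replicate 1 or Noggin+DMSO replicate 3 (up to 0.0963).

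Further genes stood among the 20 largest rises or 20 largest falls without being on a list. GEM, a small GTPase, was 14.6, 4.75 and 23.4 in the control pools, none of them above background, and 155, 110.4 and 104 in the Noggin pools. It rose at least 2.67-fold (log2 2.24, SE 0.30, adjusted p = 0.00326). SCARA5, a ferritin receptor, was 22.6, 42.7 and 27.7 against 232, 212 and 181 and rose at least 4.20-fold (log2 2.27, SE 0.43, adjusted p = 0.0152). PTGDS, which makes prostaglandin D2, rose at least 4.26-fold (log2 2.60, SE 0.60, adjusted p = 0.0324), the serotonin receptor gene HTR1E 3.98-fold (log2 1.99, SE 0.26, adjusted p = 0.00277), the thyroid hormone activating deiodinase DIO2 at least 3.28-fold (log2 1.91, SE 0.42, adjusted p = 0.0272) and the proton channel gene OTOP1 3.06-fold (log2 1.61, SE 0.21, adjusted p = 0.00287). MYT1L, a neuronal zinc finger gene, rose at least 2.15-fold (log2 1.70, SE 0.44, adjusted p = 0.048), but its Noggin pools were uneven at 105, 33.7 and 209. PON1, a paraoxonase, rose 3.18-fold (log2 1.67, SE 0.41, adjusted p = 0.04). Among the falls, CRISPLD1, which encodes a secreted cysteine-rich protein, was 601, 714 and 630.0 against 299, 224 and 224 and fell 2.52-fold (log2 -1.33, SE 0.13, adjusted p = 0.00104) with all 3 of its probe sets. LRRC32, which tethers latent TGF-β to the cell surface, fell 2.46-fold (log2 -1.30, SE 0.16, adjusted p = 0.00263), by 1 of its 3 tested probe sets while another had the opposite sign. The splicing factor gene SCNM1 fell at least 2.63-fold (log2 -1.63, SE 0.37, adjusted p = 0.03) and the chromatin adaptor gene TADA3 at least 1.46-fold (log2 -1.32, SE 0.32, adjusted p = 0.039). TAP1, an antigen peptide transporter, was 43.4 ± 1.56 in the control and 9.54 ± 1.62, below background, with Noggin (adjusted p = 0.039).

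Of these 13, GEM, HTR1E, OTOP1, CRISPLD1 and LRRC32 kept their call whichever pool was left out. PTGDS, PON1, SCNM1, TADA3 and TAP1 lost it whichever pool was left out (adjusted p up to 0.108, 0.147, 0.103, 0.12 and 0.112). SCARA5 lost it without Noggin+DMSO replicate 3 or Tris+DMSO replicate 1 (up to 0.0537), DIO2 without these, Noggin+DMSO replicate 1 or Tris+DMSO replicate 2 (up to 0.0907), and MYT1L kept it only without Noggin+DMSO replicate 2 (up to 0.151). A further 227 changed probe sets carried no gene symbol. The largest rise among them went from 8.78, 11.7 and 10.3 in the control pools, all below background, to 409, 608 and 406 in the Noggin pools (at least 9.35-fold, adjusted p = 0.00487). The largest fall among them went from 801, 560.4 and 668 to 118, 137 and 135 (4.71-fold, log2 -2.24, SE 0.17, adjusted p = 0.000513).

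Noggin had also been given together with RA, and the difference between Noggin+RA and Tris+RA shares no array with the difference above. The filter and the spread behind the 1058 calls did use the arrays with RA, so the choice of these probe sets was not independent of them. A fit of only the arrays without RA called 531, of which 460 were among the 1058. The share with the same direction was not computed for that fit. On the arrays with RA 963 of the 1058 probe sets (91.0%) changed in the same direction, against 71.1% of the 20296 that had not passed the test. Among the rises it was 566 of 634 and among the falls 397 of 424. The changes were smaller there. The median log2 change of the 634 went from 0.77 without RA to 0.29 with RA, and that of the 424 from -0.65 to -0.29. The probe sets had been chosen by their change without RA, a choice that favours large changes there. With RA, 46 probe sets passed the test themselves, 0.215% of those tested, and 40 of them were among the 1058, which is 87.0% of the shorter list and 3.78% of the longer. Of the 40, 39 went the same way. The exception, HECW1, was named after its values were seen and had log2 changes of 0.44 without RA and -0.66 with RA.

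All 40 of the most changed named genes kept their sign with RA, and 8 of them passed the test there. The change with RA was at least as large for 3 of the 40, and smaller than 0.5 times that without RA for 20. ITGA4 had a log2 change of -0.04 (SE 0.32) with RA and -1.75 without, TUBB1 0.03 (SE 0.52) and 2.02, and PON1 0.09 (SE 0.41) and 1.67. RSPO3 rose by a log2 change of 2.12 (SE 0.22, adjusted p = 0.00295) with RA and 1.98 without. TBX22 rose by 1.86 (adjusted p = 0.00295) and 1.61, GEM by 2.10 (0.0212) and 2.24, and COL8A1 by 1.46 (0.0212) and 1.69. EMX2, NKX3-2 and OTOP1 also rose on both sets of arrays, and ALDH1A2 fell on both, by -1.16 with RA (adjusted p = 0.0282). Among list members outside the 40, COL12A1, POSTN, OGN, SPON2, KRT75 and BMP5 passed the test on both. For all 14 BMP targets the change with RA was negative, with a list median of -0.47, and 0 of the 14 passed the test there. ID1 was 1868, 2020.5 and 2227 in Tris+RA and 1601, 1416 and 1038 in Noggin+RA, so that the groups did not overlap either, a log2 change of -0.61 (SE 0.15, adjusted p = 0.148). The red blood cell list mean ranged from -0.509 to 0.284 in Tris+RA and from -0.157 to 0.373 in Noggin+RA, with overlap, whereas the GAPDH ratio was 0.784 to 0.849 and 0.703 to 0.736, without. RNA completeness by the GAPDH ratio and Noggin therefore cannot be told apart on the arrays with RA either, and the shared direction of change is not free of this limit.

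Whether the effect of Noggin differed with RA was tested by the interaction term, which limma called for 0 of 21354 probe sets (smallest adjusted p = 0.125), with 1274 (5.97%) at an unadjusted p below 0.05. Among the 40 named genes the smallest interaction p belonged to HAPLN1, which had a log2 change of -1.36 without RA and -0.26 with RA (difference 1.09, SE 0.17, unadjusted p = 3.96e-05, adjusted p = 0.196). It was followed by ID1 (difference 1.19, SE 0.22, adjusted p = 0.248), CRISPLD1 (difference 0.96, adjusted p = 0.287), PRRX1 (difference 1.16, adjusted p = 0.473) and ALDH1A3 (difference -2.38, adjusted p = 0.479). ALDH1A3 was 100.3, 145 and 122 in Tris+RA and 172, 279.5 and 268 in Noggin+RA. None of these 5 differences passed the adjusted threshold, so a difference between the effects of Noggin with and without RA was not shown for any of them.

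**Figure D5:**
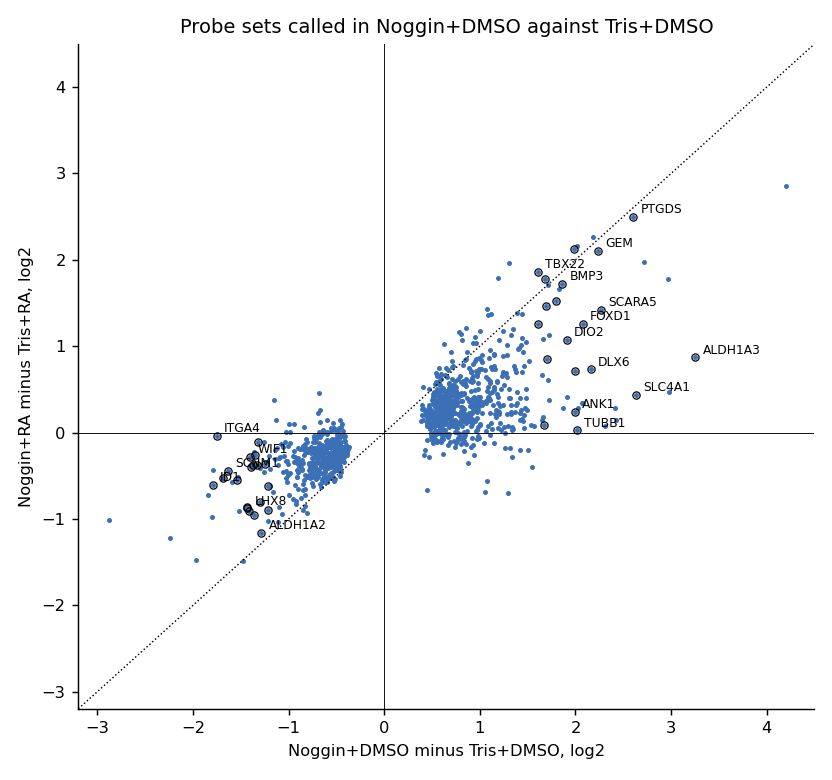
Log2 change with Noggin on the arrays without RA (horizontal axis) against that on the arrays with RA (vertical axis) for the 1058 probe sets changed without RA, with the 40 named genes circled and some of them labelled. The dotted line marks equal changes; 963 of 1058 points have the same sign on both axes.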

How the data were processed

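RNA of pooled chicken maxillary prominences was measured on 1-colour Affymetrix chicken arrays, 12 arrays in 4 groups of 3. Each pool gave 500 ng of total RNA for a two-cycle labelling protocol, per the labels. The deposited files hold 1 linear intensity per probe set, scaled so that the mean without the highest and lowest 2% was 150.03 on every array. The summarization software is not given in the sources used here. Such scaling fixes each array's mean, so that if many probe sets shift, the others shift against them.

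Of 38535 probe sets, 96 labelling controls, 57 reporter controls and 689 with accessions outside the chicken series (mostly of viruses) were left out, the last serving as background at their 95th percentile. Among the 37693 chicken probe sets 27166 had 1 gene symbol, 10350 none and 177 several. The 21354 above their array's median on at least 3 of 12 arrays were tested as log2(value + 16), with 1 mean per group over all 12 arrays, in limma 3.58.1 (R 4.3.3; two-sided, Benjamini-Hochberg over the 21354). The model was tested on simulated data with independent noise for each probe set. The simulation held no shift in RNA completeness or blood cell content, so it does not bear on these. Where at most 1 of 3 arrays of the lower group was above background, its values were raised to background and the fold is a lower limit. The number of arrays limits the precision. The labels call the pools biological replicates. Noggin+DMSO and Tris+DMSO pools of the same replicate number had correlations of their deviations of -0.0522, -0.0825 and 0.0141. Those of different numbers ran from -0.114 to 0.167. No pairing was seen and no block was used, but 3 pools per group cannot exclude pairing. Pairing of the pools with RA was not tested. There, replicate 1 had the highest red blood cell list mean in Noggin+RA (0.373) and in Tris+RA (0.284).

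Named genes are the 20 largest rises and 20 largest falls among changed genes with 1 symbol, by the brightest probe set and without overlap between groups, plus members of 28 gene lists written from general knowledge, and for the interaction the 5 named genes of smallest p. The comparison, lists and tests were chosen with earlier results of these data known, and the lists get counts and medians only. Scaling, added value, filter, variance model, block, covariates, threshold and left-out pools were varied.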

Additional observations from a re-analysis of the deposited data

Results flagged for a closer look

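The 689 probe sets named by accessions of other sources, most of them bird viruses, were not tested for change and only set the background. Their median intensity was 6.63 ± 1.28 (SD, n = 3) in the Noggin+DMSO pools and 4.99 ± 0.670 in the Tris+DMSO pools, higher in 3 of 3 Noggin pools than in any control pool (exact permutation test, two-sided p = 0.1, the smallest possible, and 0.2 after adjustment over 16 array measures). This signal lay outside the measured genes and above its level in the control, which is what brought it up. Its part in the calls was not tested.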

How the results depend on the processing

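The 1058 changed probe sets became 531 when only the 6 arrays were fitted, 1839 with median centring, 676 without the filter on low values (37693 tested), 2514 at an adjusted p below 0.10, and 259 to 802 with 1 pool left out. A GAPDH 5′ over 3′ covariate left 0 (1517 at an unadjusted p below 0.05), and the red blood cell list mean, a covariate chosen after seeing the data, left 32. These covariates left 0 and 1 of the 7 BMP target calls, and leaving out a pool 6 to 7. The median log2 change of the BMP targets was -1.04 and -0.879 with these covariates against -0.928, and the median SE of the 40 named genes rose from 0.258 to 0.639 and 0.36. The count was 856 and 1520 with 1 or 64 added before log2, 1113 with quantile normalization, 1176 with the filter on at least 6 arrays and 1440 with an intensity trend. The share that went the same way with RA was 93.8% with median centring, 89.0% at an adjusted p below 0.10, and 89.7% to 93.0% with 1 pool left out, against 91.0%. With the replicate number as a block, although no pairing by number was seen, 767 were called, 710 of them shared with the 1058. Of 86 named genes and list members, 36 kept their call in all 6 fits with a pool left out, 23 of the 40 named genes among them. Quantile normalization ended 9 of the 86 calls (BMP6, DKK2, DLL4, FSTL1, LHX9, MYT1L, NOTUM, RSPO1, TUBB1), median centring 13 (B2M, BMP6, CD74, DKK2, FSTL1, GDF5, ITGB3, NOTUM, OTX2, RSPO1, SPARC, TAL1, VWF) and the block 10 (ANGPT1, GDF5, IL17RD, ITGA1, LHX8, NOTUM, SPARC, TADA3, TFRC, VWF). Signs turned for ANGPT1 with the GAPDH covariate (log2 0.133) and for PON1 (-0.151) and TUBB1 (-0.305) with the red blood cell covariate; the cause was not tested. TADA3 and TAP1 were above background on 0 of the 3 Noggin arrays.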
